A study of Homo sapiens with 6 samples.

Results

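The clustered histone genes are the replication-dependent histone genes that lie in the HIST1 cluster on chromosome 6, the HIST2 and HIST3 clusters on chromosome 1 and at the HIST4 locus on chromosome 12. They were taken by name, as the genes whose symbol reads HIST, a cluster number from 1 to 4, one of the families H1, H2A, H2B, H3 or H4, and letters. This gave 39 of the 57396 genes in the count table: 23 on chromosome 6, 15 on chromosome 1 and 1 on chromosome 12. By the family in the name, pseudogenes included, 6 belong to H1, 8 to H2A, 15 to H2B, 6 to H3 and 4 to H4. The cells were PC-3, a human line grown from a bone metastasis of prostate carcinoma, and their RNA was sequenced in 3 libraries after 5 days with 160 micromolar S-adenosylmethionine (SAM, the methyl donor of cellular methyltransferases) and in 3 libraries after vehicle for the same time. The question was how SAM alters the transcriptome of these cells. Nothing in the labels says that the libraries of a group came from separate cultures, so each p-value below rests on differences between libraries that may be technical replicates.

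Histones package DNA. H2A, H2B, H3 and H4 form the core of the nucleosome, and H1 binds the linker DNA between nucleosomes. Most clustered histone genes are switched on together when DNA is replicated, and their messenger RNAs are the only ones in animal cells that normally end in a conserved stem-loop in place of a poly(A) tail. Some clustered genes also give a longer RNA, which reads past the stem-loop and does end in a poly(A) tail. Replacement histones, encoded by single genes elsewhere in the genome, are made from polyadenylated messenger RNA in all phases of the cell cycle. The TruSeq RNA kit named in the labels enriches RNA with a poly(A) tail, so how much stem-loop histone RNA enters such a library depends on how strictly that step excludes RNA without a tail. Counts per gene do not tell the stem-loop form from the polyadenylated form.

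The stem-loop was read from the genome for each gene with an annotated stop codon, because it is the feature that sets these RNAs apart. Its consensus, spelled GGC, any base, CTTTT, any base, AG, any base and GCC, was searched on the coding strand only in the 100 bases after the stop codon. It was present without a mismatch in 34 of the 34 members with a stop codon in GENCODE release 44, and in 68 of 19947 protein-coding genes tested the same way (0.341%). It began 22 to 57 bases after the stop codon. The other 5 members, HIST2H2BA, HIST2H2BB, HIST2H2BC, HIST2H2BD and HIST3H2BA, had no annotated stop codon. GENCODE types HIST2H2BA, HIST2H2BD and HIST3H2BA as pseudogenes and holds no entry for the identifiers of HIST2H2BB and HIST2H2BC. Among the 34 genes, 20 carried the same 16 bases, 8 shared another form that differs from it only in the loop, and the 4 H4 genes shared a stem of their own. Below, the 16 bases are in capitals with 4 bases before and 6 after in lower case, 5′ to 3′ on the coding strand, in GRCh38. The first gene is the only member called different with SAM in the test below, and the next 2 are the other members with the most counts. The following 4 are genes that were high in a single library of each group, and the last is the replacement histone gene that carries the element as well.
HIST1H2AC (chr6:26124665-26124690, plus strand): caaaGGCTCTTTTCAGAGCCccccta
HIST1H2BK (chr6:27146360-27146385, minus strand): caaaGGCTCTTTTAAGAGCCacttaa
HIST1H1C (chr6:26055738-26055763, minus strand): aaaaGGCTCTTTTCAGAGCCaccact
HIST1H1E (chr6:26157091-26157116, plus strand): caaaGGCTCTTTTCAGAGCCacccac
HIST1H1D (chr6:26234211-26234236, minus strand): aaacGGCTCTTTTCAGAGCCacccac
HIST1H4C (chr6:26104313-26104338, plus strand): caaaGGCCCTTTTCAGGGCCgctcac
HIST1H2AI (chr6:27808643-27808668, plus strand): caaaGGCTCTTTTCAGAGCCacctac
H2AFX (chr11:119094892-119094917, minus strand): caaaGGCCCTTTTAAGGGCCaccacc

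The libraries held 12020601 to 28995160 gene counts with SAM and 9379258 to 21768273 in controls. On these raw totals, a floor of 3 counts lay between 0.103 CPM in SAM 1 and 0.320 CPM in control 1. CPM of genes are counts scaled to library sizes after TMM normalisation. EPCAM, KRT8 and KRT18, epithelial markers, ran from 399 to 1307 CPM over the libraries, and KLK3 had 0 counts. Of 7 tested genes on a list of epithelial and prostate markers that also holds VIM, 1, VIM itself, was higher with SAM by edgeR's test. On the same list 2 were lower, where 10.4% of all tested genes were called in either direction. VIM, an intermediate filament protein of mesenchymal cells, was at 14.4 ± 0.510 CPM with SAM and 10.01 ± 0.731 CPM in controls (SD, n = 3 each). CDH1, the epithelial cadherin, was at 267 ± 31.7 CPM with SAM and 365 ± 22.3 CPM in controls, and TMPRSS2, a serine protease, at 3.29 ± 0.577 CPM with SAM and 5.13 ± 0.391 CPM in controls (edgeR adjusted p of 0.0252, 0.0298 and 0.0492 for the 3 genes). The leukocyte, endothelial and stromal markers CD3E, PTPRC, VWF and COL1A2 were below 0.6 CPM in each library, and COL1A1 lay between 16.6 and 18.8 CPM. SAM 2 and control 1 stood apart from the other 4 libraries in RNA without a poly(A) tail. RN7SK, the RNA of a transcription-elongation inhibitor complex, was at 4.24, 380 and 3.76 CPM in SAM 1 to 3, against 329, 10.5 and 12.8 CPM in control 1 to 3. Of 13 such RNAs, 9 were tested, with the mitochondrial ribosomal RNAs MT-RNR1 and MT-RNR2 counted among them. The tails of these 2 were not examined. All 9 had SAM 2 and control 1 as their 2 highest libraries. These libraries are therefore given separately for the histone genes.

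The clustered histone genes took 0.0181, 0.0300 and 0.0183% of the counts in SAM 1 to 3, and 0.0351, 0.0239 and 0.0250% in control 1 to 3. The 95% Wilson intervals of these shares, for counting error only, ended at 0.0363% or below. The summed level was 181, 305 and 187 CPM in SAM 1 to 3, against 353, 237 and 245 CPM in control 1 to 3. Within each group, the sum was highest in the library rich in RNA without a tail, and the groups overlapped. HIST1H2BK, HIST1H2AC and HIST1H1C together held 69.1, 49.3 and 73.5% of the members' counts in SAM 1 to 3, and 57.7, 71.0 and 69.9% in control 1 to 3. Per kilobase of the transcript length that the table lists, HIST1H2BK reached 229 CPM on average over the 6 libraries, HIST1H1C 48.6, HIST1H2AC 24.4, HIST1H2BD 22.0 and HIST1H4H 21.9. This order depends on the listed lengths, which were 381, 642, 1668, 496 and 397 bases for these genes in turn. Those of HIST1H2BK, HIST1H1C and HIST1H4H are lengths of short forms.

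The families differed in how far SAM 2 and control 1 stood out. The H1 genes summed to 26.1, 67.3 and 25.9 CPM in SAM 1 to 3, against 67.9, 27.4 and 26.9 CPM in control 1 to 3. The H4 genes summed to 8.10, 22.1 and 6.14 CPM with SAM and to 22.2, 7.36 and 9.30 CPM in controls, and the H3 genes to 1.55, 7.95 and 0.858 CPM with SAM and 7.51, 1.86 and 2.94 CPM in controls. In these 3 families a single library of each group set the group's level. The H2A genes summed to 47.7, 63.5 and 44.6 CPM with SAM, against 89.8, 78.6 and 77.2 CPM in controls. H2A was the only family whose groups did not overlap, and HIST1H2AC alone held 27.2 to 28.9 CPM of that sum with SAM and 52.9 to 54.1 CPM of it in controls. The H2B genes summed to 97.1, 144 and 109 CPM with SAM and to 166, 121 and 128 CPM in controls.

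**Figure D1:**
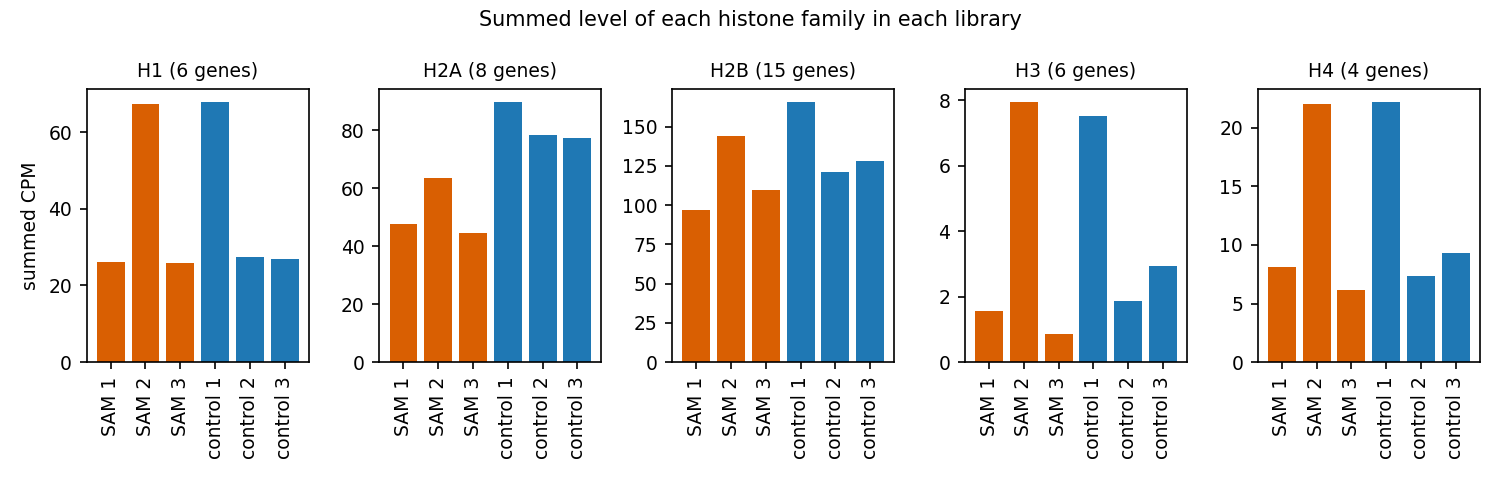
Summed CPM (vertical axes, each from 0 and on its own scale) of the genes of each histone family in the 6 libraries (horizontal axes), SAM in orange and control in blue. H1, H3 and H4 peak in SAM 2 and control 1, at 67.3 and 67.9 CPM for H1, and the H2A sums stay below 64 CPM with SAM and above 77 CPM in controls.

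Of the 39 members, 19 passed the filter on low counts and were tested for a difference between SAM and control with edgeR's quasi-likelihood test. Of the 20 that did not pass, 4 had 0 counts in every library (HIST1H1A, HIST1H2AA, HIST1H2BA and HIST2H2BB), 6 had 1 to 9 counts in all and 10 had at least 10. Of the 19 tested, 1 was lower with SAM and 0 were higher at a Benjamini-Hochberg adjusted p under 0.05, against a background of 5.24% of all 15312 tested genes lower, 5.19% higher and 10.4% in either direction. At an unadjusted p under 0.05, 2 members were lower and 0 higher, where 30.6% of all tested genes passed in either direction. DESeq2 and limma voom each called 1 lower and 0 higher as well. The groups did not overlap for 3 of the 19, all lower with SAM, where 36.7% of all tested genes did not overlap and 18.8% did so with SAM lower. The median log2 fold change of the 19 was -0.18, against -0.01 over all tested genes, and 14 were below 0, against 50.9% of all tested genes. Without SAM 2 that median was -0.79 and without control 1 it was 0.14.

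HIST1H2AC, which encodes a core H2A histone, was the only member called by edgeR's test. That does not show that the others were unchanged. The gene (ENSG00000180573) lies on the plus strand of chromosome 6, at 26124145 to 26139116 in GRCh38. It stood at 27.3, 28.9 and 27.2 CPM in SAM 1 to 3, against 52.9, 54.0 and 54.1 CPM in control 1 to 3. The libraries of each group lay within 2 CPM of each other and the groups were far apart. The counting intervals below are wider than this spread, so the closeness does not measure reproducibility. The means were 27.8 ± 0.963 CPM with SAM and 53.7 ± 0.677 CPM in controls (SD, n = 3 each), a log2 fold change of -0.95 (SE 0.08, edgeR adjusted p = 0.000895). In SAM 2 the level was 1.06 times that of SAM 1 and 3 pooled (exact 95% counting interval 0.94 to 1.20), and in control 1 it was 0.98 times that of controls 2 and 3 (0.89 to 1.08). HIST1H2AC thus did not show the excess in SAM 2 and control 1 that most other members showed. Without both of these libraries its log2 fold change was -0.98 (SE 0.13, edgeR adjusted p = 0.00632), and in every one of 19 alternative settings it remained lower with SAM at an adjusted p of at most 0.0149. GENCODE annotates a 3′ untranslated region of up to 1187 bases for the gene, well past the stem-loop printed above. Of its 50-base windows, 1.49% also occur in transcripts of other annotated histone genes, the only genes searched.

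HIST1H2BC, an H2B gene, is the head-to-head partner of HIST1H2AC. Their start sites lie 219 bases apart on opposite strands, so that they share the sequence between them. HIST1H2BC was at 3.75, 9.81 and 3.04 CPM in SAM 1 to 3, against 8.47, 5.27 and 4.90 CPM in control 1 to 3. Its groups overlapped, and the log2 fold change was -0.18 (SE 0.40, edgeR adjusted p = 0.780). The 2 fold changes were not tested against each other. The shared stretch holds an octamer, ATGCAAAT, the motif of the POU-domain factors that act on H2B promoters, shown here in capitals within 30 bases on the plus strand (RefSeq sequence, GRCh38.p14).
Between HIST1H2BC and HIST1H2AC (chr6:26124031-26124060, plus strand): tgggcagagctATGCAAATgaggtatgaaa
Over the 250 bases before the start site, RefSeq promoters matched 31 members. The octamer, on either strand, was in 13 of them (41.9%), against 1.63% of 35116 promoters. The letters CCAAT, on either strand, were in 29 (93.5%), against 32.0% of all promoters. The letters TATAAA, on either strand, were in 22 (71.0%), against 10.7% of all. These matches are descriptions of the sequence, and the windows of head-to-head partners overlap. A member counts if any of its RefSeq promoters holds the motif. The octamer of HIST1H3D lies only in a window that is also that of HIST1H2AD.

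There were 6 head-to-head pairs among the members. In HIST2H2BE and HIST2H2AC, the log2 fold changes were -0.33 (SE 0.39) and -0.40 (SE 0.45), and in HIST1H2BJ and HIST1H2AG they were -0.40 (SE 0.30) and -0.22 (SE 0.35). In HIST3H2A and HIST3H2BB they were -0.20 (SE 0.11) and 0.10 (SE 0.73). None of these 6 genes passed the test. In the pair of HIST1H2BL and HIST1H2AI only HIST1H2AI was tested, and HIST1H2BA and HIST1H2AA had no counts.

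**Figure D2:**
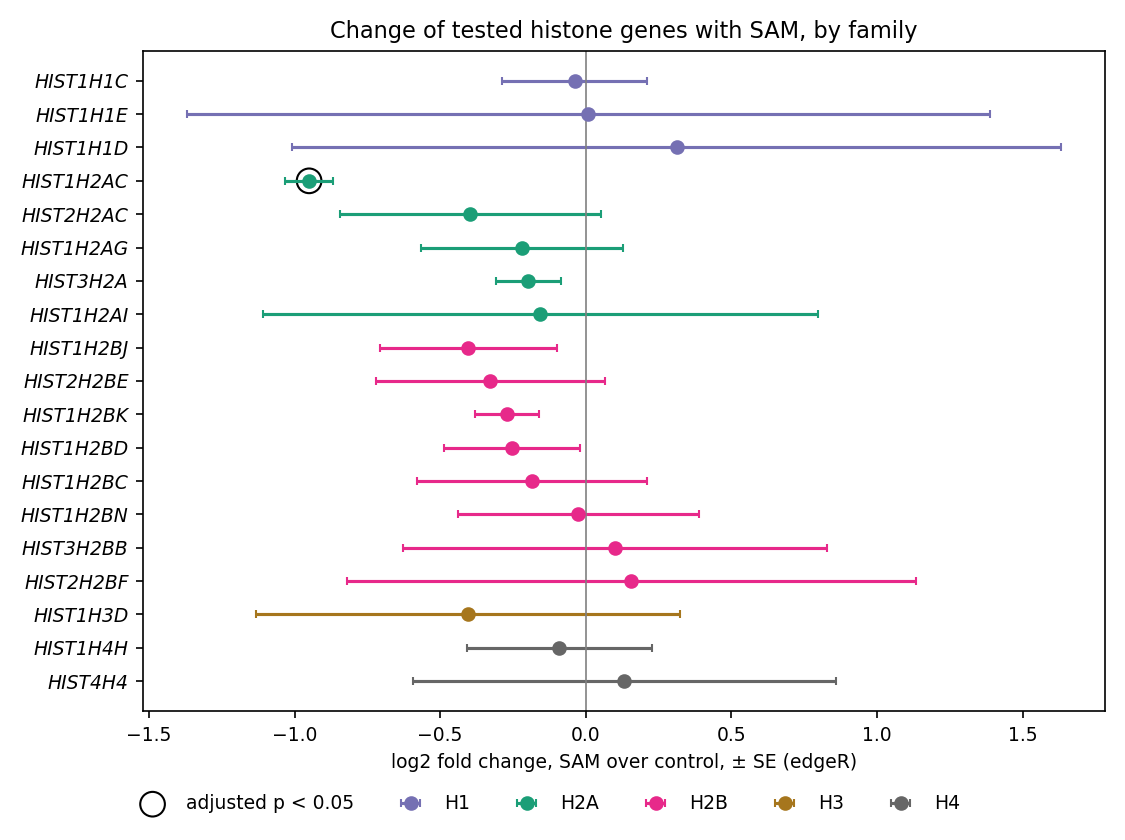
Log2 fold change, SAM over control, with its SE from edgeR (horizontal axis) for the 19 tested members grouped and coloured by family (vertical axis), with a ring around a member at an adjusted p under 0.05. HIST1H2AC, at -0.95, is the member with a ring, and the widest bars, with an SE above 1, belong to HIST1H1E and HIST1H1D.

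HIST1H2BK, an H2B gene, was the member with the most counts. Its level was 71.9, 79.9 and 85.2 CPM in SAM 1 to 3, against 106, 88.0 and 91.9 CPM in control 1 to 3. All SAM libraries lay below all control libraries, but the difference did not pass the test (log2 fold change -0.27, SE 0.11, edgeR adjusted p = 0.135). It passed once a trend on transcript length and GC content was removed from each library (log2 fold change -0.54, adjusted p = 0.0233), where 9.35% of all tested genes were called lower. Of its 50-base windows, 57.2% also occur in other histone genes' transcripts, so its count is uncertain. HIST3H2A, an H2A gene on chromosome 1, was at 13.6, 12.9 and 12.7 CPM in SAM 1 to 3, against 14.9, 16.03 and 14.2 CPM in control 1 to 3. Here too the groups did not overlap, by a small margin, and the test was not passed (log2 fold change -0.20, SE 0.11, edgeR adjusted p = 0.260). Neither gene was highest in both SAM 2 and control 1.

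HIST1H1C, the linker histone H1.2, was at 25.5, 41.5 and 25.02 CPM in SAM 1 to 3, against 44.5, 25.9 and 24.9 CPM in control 1 to 3. The 4 libraries poor in RNA without a tail lay within 1 CPM of each other, whatever the treatment. The log2 fold change was -0.04 (SE 0.25, edgeR adjusted p = 0.936), and without SAM 2 and control 1 it was 0.00062 (SE 0.13). HIST1H4H, an H4 gene, was at 6.86, 12.7 and 5.55 CPM in SAM 1 to 3, against 12.7, 6.54 and 7.79 CPM in control 1 to 3. HIST2H2BE, an H2B gene on chromosome 1, was at 3.89, 9.22 and 4.16 CPM in SAM 1 to 3, against 11.7, 5.22 and 5.04 CPM in control 1 to 3. Both had overlapping groups, with log2 fold changes of -0.09 (SE 0.32) and -0.33 (SE 0.39). The span that the table lists for HIST2H2BE encloses HIST2H2BD, HIST2H2BC and HIST2H3A.

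Among the H2B genes, HIST1H2BD was at 7.92, 14.4 and 7.72 CPM in SAM 1 to 3, against 13.8, 11.03 and 10.6 CPM in control 1 to 3. HIST1H2BJ was at 6.17, 12.01 and 5.41 CPM in SAM 1 to 3, against 13.8, 7.63 and 9.70 CPM in control 1 to 3. The H2A gene HIST1H2AG, the partner of HIST1H2BJ, was at 4.37, 9.90 and 3.30 CPM in SAM 1 to 3, against 8.37, 5.81 and 5.97 CPM in control 1 to 3. In these 3 genes SAM 1 and 3 lay below every control library and SAM 2 lay within or above the controls. Their log2 fold changes were -0.25 (SE 0.23), -0.40 (SE 0.30) and -0.22 (SE 0.35), and none passed the test. With SAM 2 left out they were -0.57, -0.79 and -0.74, and the genes passed with edgeR adjusted p of 0.0298, 0.0408 and 0.0401. That setting called 4 of 20 tested members lower, HIST1H2AC included, against 9.89% of all genes, and it sets SAM 1 and 3 against controls that still include control 1. In the same fit RN7SK had a log2 fold change of -4.82 (edgeR adjusted p = 0.0487).

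The 5 tested members that stood out most in SAM 2 and control 1 were low in the other libraries. HIST1H1E, the linker histone H1.4, had 10, 192 and 4 counts in SAM 1 to 3, and 148, 16 and 23 counts in control 1 to 3. On the CPM scale this was 0.344, 16.2 and 0.264 in SAM 1 to 3, against 15.9, 0.726 and 1.13 in control 1 to 3. SAM 2 was 51.2 times as high as SAM 1 and 3 pooled (exact 95% counting interval 29.8 to 95.5), and control 1 was 17.3 times as high as controls 2 and 3 (12.1 to 25.3). HIST1H1D, the linker histone H1.3, had 2, 111 and 7 counts in SAM 1 to 3, and 67, 14 and 14 in control 1 to 3. It was 46.1 times as high in SAM 2 (23.4 to 103) and 10.9 times as high in control 1 (6.91 to 17.6) as in their group mates. With such a spread inside each group, the fitted log2 fold changes were 0.01 (SE 1.38) for HIST1H1E and 0.31 (SE 1.32) for HIST1H1D. For neither gene did the difference between the treatments exceed its error.

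HIST1H2AI was 9.04 times as high in SAM 2 as in SAM 1 and 3 (5.87 to 14.2) and 6.14 times as high in control 1 as in controls 2 and 3 (4.12 to 9.19). HIST2H2BF was 12.04 times (6.99 to 21.7) and 4.29 times (2.56 to 7.16) as high, and HIST1H3D, the H3 gene with the most counts, 5.91 times (3.97 to 8.87) and 2.84 times (1.98 to 4.05). HIST1H2AI shares 63.5% and HIST2H2BF 74.0% of its 50-base windows with other histone genes' transcripts, so their counts are uncertain. The excess in SAM 2 exceeded that in control 1 in each of these 5 genes, as point estimates. Of the other tested members, HIST1H2BN, HIST2H2AC, HIST4H4 and HIST3H2BB were 2.26 to 6.23 times as high in SAM 2 as in their group mates. In control 1 they were 1.42 to 3.41 times as high.

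Over the 19 tested members, 16 had SAM 2 and control 1 as their 2 highest libraries, against 7.01% of all 15312 tested genes. The exceptions were HIST1H2AC, HIST1H2BK and HIST3H2A. The median of the log2 level in SAM 2 minus that of SAM 1 and 3 was 1.35, and that of control 1 minus controls 2 and 3 was 0.81, where both medians over all tested genes were 0.00. Of the 19, 14 had a counting interval above 1 for both ratios, 8 exceeded 2-fold in both and 3 exceeded 5-fold in both. Since 2 of 6 libraries are high, and the filter asks for counts in more libraries than that, members with counts only there could not enter the test.

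**Figure D3:**
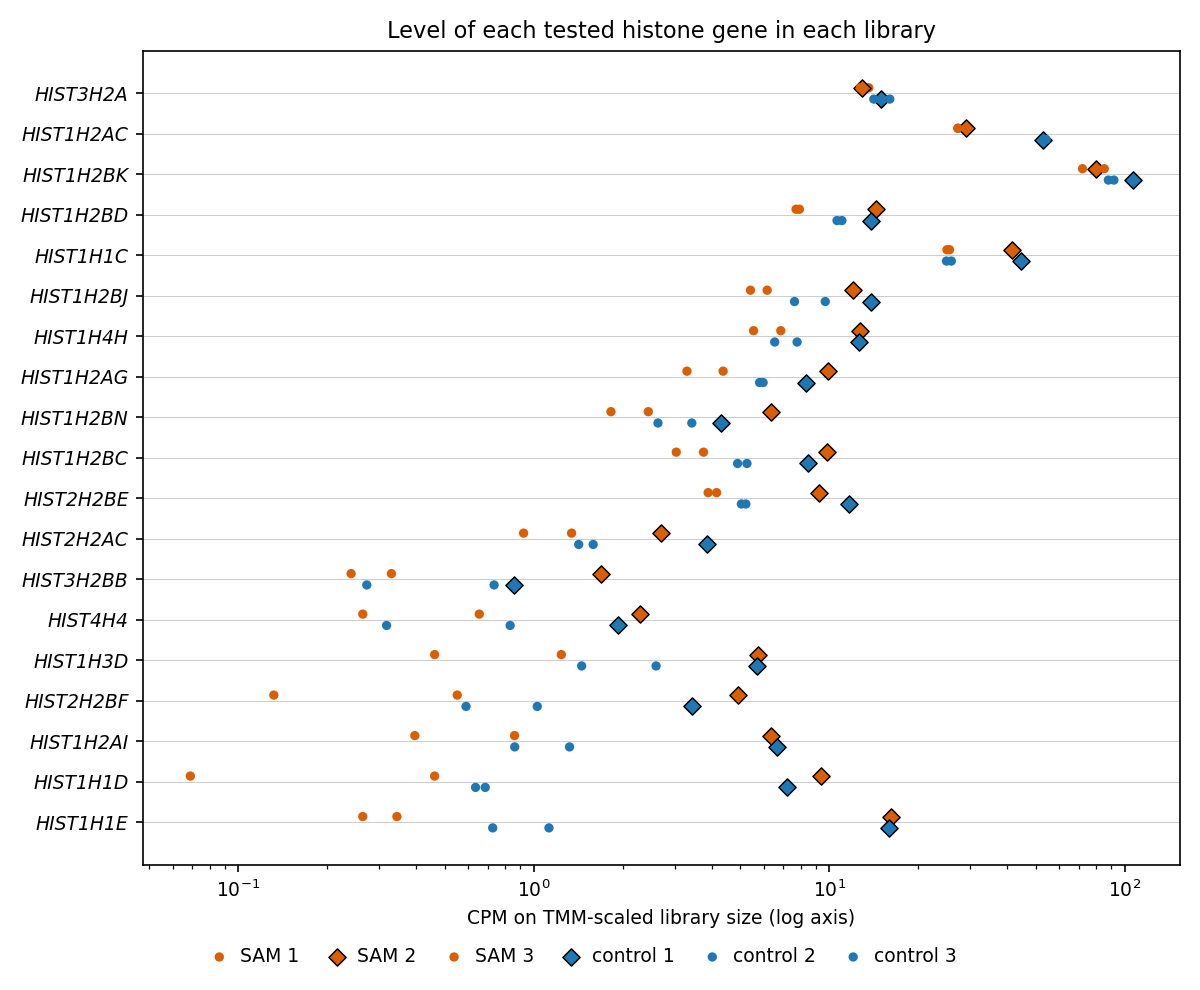
CPM on a log axis (horizontal) of each tested member (vertical, ordered by how far SAM 2 and control 1 exceed their group mates, least at the top) in the 6 libraries. SAM is orange and control blue, and diamonds mark SAM 2 and control 1. The diamonds lie among the other points for HIST3H2A and HIST1H2AC and far to the right for HIST1H1D and HIST1H1E. For HIST1H2BK the diamond of control 1 is the highest point and that of SAM 2 lies among the others.

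Of the 10 members with at least 10 counts that were not tested, 6 had SAM 2 and control 1 as their 2 highest libraries. HIST1H4C, an H4 gene, had 13, 80 and 2 counts in SAM 1 to 3 and 67, 8 and 11 in control 1 to 3. HIST1H2BL had 4.91 CPM in SAM 2 and 2.90 CPM in control 1, and at most 0.414 CPM in the other 4 libraries. HIST1H2AD had 0, 13 and 0 counts in SAM 1 to 3 and 18, 0 and 1 in control 1 to 3. A count of 0 allows up to 0.103 CPM in SAM 1 and 0.194 CPM in SAM 3, on raw library totals. HIST2H2AB, HIST2H3D and HIST1H4J were the other 3, and HIST2H3D and HIST1H4J share most of their windows with other histone genes. HIST2H2BA, HIST2H2BC, HIST1H3J and HIST1H1B stayed below 0.5 CPM in each library.

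The members were also set apart by whether a longer form is annotated, that is a 3′ untranslated region of at least 200 bases in GENCODE or a gene span of at least 1000 bases in RefSeq or in the table. This grouping was made after the values were seen and carries no test. By these criteria 18 members counted as having a longer form and 16 as having only a short form. A long span need not run past the stem-loop. For HIST1H3D, RefSeq lists a start shared with HIST1H2AD, upstream of the gene, and the GENCODE 3′ untranslated region is 56 bases. The listed span of HIST1H3J, which was not tested, also runs upstream. Of the tested members, the 5 with only a short form had median ratios of 9.04 in SAM 2 and 6.14 in control 1 to their group mates. The 14 with a longer form had median ratios of 2.39 and 1.63, ranging from 0.972 to 12.04 and from 0.978 to 4.29. The split was not clean. HIST1H1C has only a short form annotated and ratios of 1.64 (1.47 to 1.82) and 1.75 (1.56 to 1.96), and HIST2H2BF has a longer one and ratios among the highest.

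The replacement histones did not show the excess. Of 11 tested, 0 had SAM 2 and control 1 as their 2 highest libraries, and their log2 level in SAM 2 minus SAM 1 and 3 ran between -0.39 and 0.02, and in control 1 minus controls 2 and 3 between -0.21 and 0.12. This includes H2AFX, which carries the stem-loop printed above and has a GENCODE 3′ untranslated region of up to 1089 bases. The 9 tested RNAs without a tail ran between 0.56 and 7.28 in SAM 2 and between 0.29 and 5.91 in control 1 on the same scale. MT-RNR2 gave the lower end of both ranges. The part that RNA without a tail plays in the levels of the clustered histone genes was not tested.

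**Figure D4:**
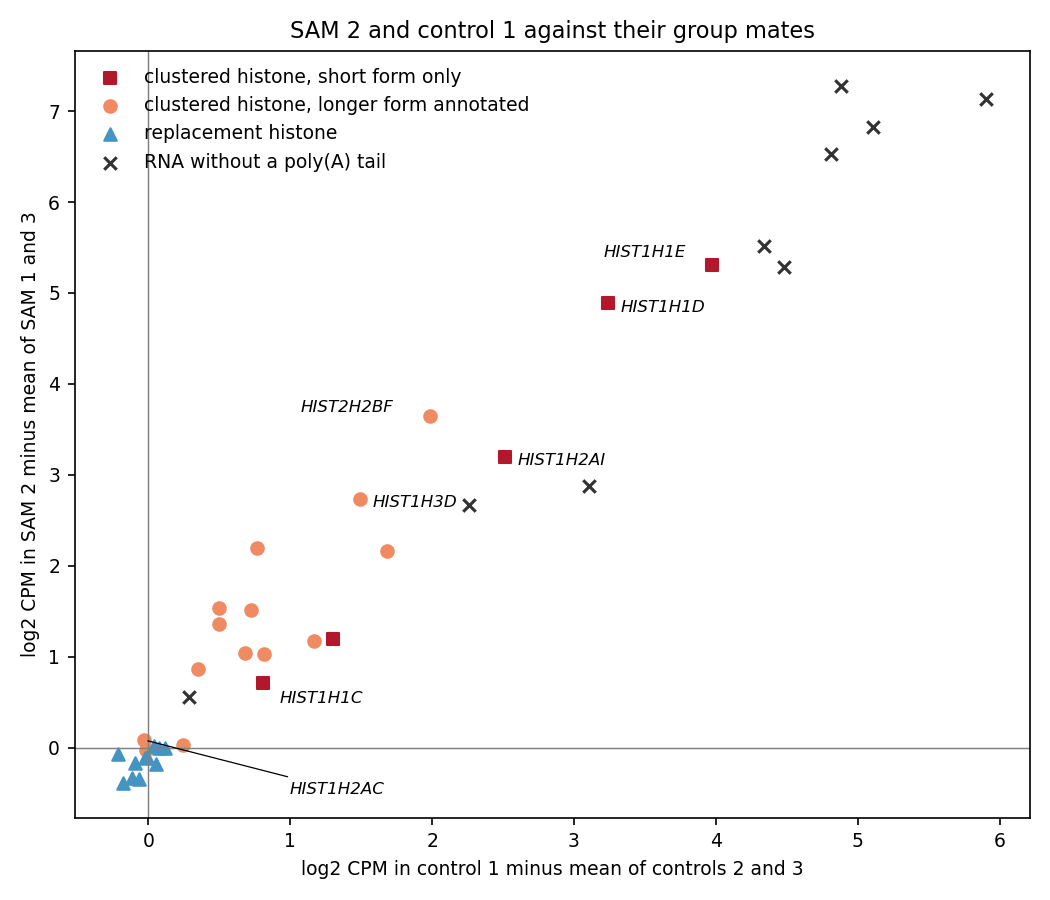
Log2 CPM (prior count 2) in SAM 2 minus the mean of SAM 1 and 3 (vertical axis) against that in control 1 minus the mean of controls 2 and 3 (horizontal axis). Points are the 19 tested clustered histone genes by annotated form, 11 replacement histones and 9 RNAs without a poly(A) tail. Replacement histones and HIST1H2AC lie near 0 on both axes, and HIST1H1E and HIST1H1D lie among the RNAs without a tail.

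Set side by side, SAM 2 and control 1 had like levels of most members. The ratio of SAM 2 to control 1 had a median of 1.01 over the 19 tested members, with 11 above 1 and 8 below, and was 1.02 for HIST1H1E and 0.55 for HIST1H2AC. In the other 4 libraries, SAM 1 and 3 pooled were below controls 2 and 3 pooled for 19 of 19, with a median ratio of 0.685 and a range of 0.309 to 0.997, where the median over all tested genes was 0.993. Both SAM libraries lay below both control libraries for 15 of the 19, against 30.8% of all tested genes. The same held in part for RNA without a tail: 7 of 9 were lower in SAM 1 and 3 than in controls 2 and 3, with a median ratio of 0.599 and a range of 0.285 to 2.11, and RN7SK had a ratio of 0.350. For the 11 replacement histones the median was 1.09, with 4 below 1. Fitted without SAM 2 and control 1, 17 of 18 tested members had a log2 fold change below 0 with a median of -0.54, against 50.6% of all genes below 0. Of these, 8 had an unadjusted p under 0.05, against 27.6% of all genes, and HIST1H2AC was the 1 called after adjustment, against 3.21% of all genes called lower. In the same fit 4 of 8 tested RNAs without a tail were called lower, RN7SK among them at -1.53 (SE 0.19, edgeR adjusted p = 0.00568).

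Replacement histones, which share the members' function, had calls in both directions. Of the 11 tested, 1 was higher and 2 were lower with SAM, where 5.19% of all tested genes were higher and 5.24% lower, and their median log2 fold change was 0.09. H2AFX, the H2A variant phosphorylated at DNA breaks, was at 207, 178 and 195 CPM in SAM 1 to 3, against 141, 149 and 151 CPM in control 1 to 3, a rise of 0.39 on the log2 scale (SE 0.10, edgeR adjusted p = 0.0309). H1F0, the linker histone H1.0 known from differentiated cells, was at 433, 495 and 567 CPM in SAM 1 to 3, against 741, 644 and 721 CPM in control 1 to 3 (log2 fold change -0.49, SE 0.12, edgeR adjusted p = 0.0278). H2AFY2, the variant macroH2A2, fell to 25.3 ± 2.38 CPM with SAM, against 33.3 ± 0.772 CPM in controls (SD, n = 3 each, edgeR adjusted p = 0.0333). H2AFX did not pass once the trend on length and GC content was removed (edgeR adjusted p = 0.149). H2AFZ, the variant H2A.Z, averaged 355 CPM with SAM and 275 CPM in controls but did not pass (edgeR adjusted p = 0.0681).

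Genes that act in histone RNA synthesis and processing, in histone deposition and in S phase were read beside the members. The lists overlap, and a shared gene is counted in each. CCNE2 is on the S-phase and processing lists, and MCM2 on the S-phase and chaperone lists. Of 36 tested genes for synthesis and processing, 4 were higher and 0 lower with SAM, where 5.19% of all tested genes were higher, and with library totals as the only scaling 1 was higher. SLBP, the protein that binds the stem-loop, was at 60.3, 53.4 and 54.7 CPM in SAM 1 to 3, against 43.7, 47.3 and 42.4 CPM in control 1 to 3 (log2 fold change 0.34, SE 0.09, edgeR adjusted p = 0.0450). CCNE1, the cyclin whose kinase activates the histone gene coactivator NPAT, rose by 0.60 on the log2 scale, LSM10, a subunit of the U7 particle that cuts histone RNA, by 0.48, and SRRT, a partner of the cap-binding complex, by 0.48. Of 27 histone chaperones 2 were higher and 0 lower, a share near that of all tested genes: CHAF1A, the large subunit of chromatin assembly factor 1, averaged 75.5 CPM with SAM and 57.7 CPM in controls, and ASF1B, an H3-H4 chaperone, 106 and 77.7 CPM.

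Of 22 S-phase genes, 7 were higher and 0 lower, against the background of 5.19% of all genes higher. FEN1, a flap endonuclease, averaged 161 ± 15.2 CPM with SAM and 114 ± 3.48 CPM in controls (SD, n = 3 each). RRM2, a subunit of ribonucleotide reductase, averaged 282 CPM with SAM and 199 CPM in controls, E2F1, a transcription factor of the G1 to S transition, 93.5 and 63.5 CPM, and GINS2, a part of the replicative helicase, 44.2 and 31.2 CPM. At an unadjusted p under 0.05, 11 S-phase genes, 5 chaperones and 9 processing genes were higher and 0, 0 and 1 were lower. DESeq2 called 9, 2 and 4 of them higher and limma voom 8, 2 and 3, and neither called any lower. The median log2 fold changes were 0.22 for S phase, 0.11 for chaperones and 0.11 for synthesis and processing, and -0.18 for the clustered histone genes. These calls rested on the libraries as a set. None of the S-phase, chaperone, processing, replacement and epithelial or prostate marker genes passed edgeR's test when SAM 1, control 1, control 2 or control 3 was left out, where adjusted p was between 0.0632 and 0.218 for the genes named, and without both SAM 2 and control 1 the number higher was 5, 1 and 3 for S phase, chaperones and processing. In that fit 0 of 12 tested replacement histones were called in either direction, so the calls on H2AFX, H1F0 and H2AFY2 were lost, and of the markers only CDH1 was called.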

How the data were processed

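The authors deposited raw counts per Ensembl gene for the 6 libraries, with coordinates and a transcript length. The submitters' processing notes name STAR 2.4, HTSeq 0.6.1 and the builds hg19 and mm10, without roles. The use of strand in counting was not given in the sources used here; reads of a gene and of an overlapping or antisense partner may be mixed. The listed coordinates overlapped GENCODE release 44 (GRCh38) for 99.9% of 51488 shared identifiers, and the counting may rest on an older annotation. The table holds 33 of the 69 clustered histone genes that GENCODE names; the others were not analysed here, nor were 15 symbols starting with HIST that the naming rule leaves out. The deposited normalised table was not used. Rows without a gene name took 0.468 to 0.619% of the counts.

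Counts were tested in edgeR 4.0.16 (R 4.3.3) with filterByExpr, TMM scaling, glmQLFit and glmQLFTest, with treatment as the only term. Tests were two-sided, with Benjamini-Hochberg adjustment over all 15312 genes tested. An SE was obtained from the log2 fold change and the F statistic, as its size over the root of F. Ratios between libraries carry exact binomial 95% intervals, for counting error only. Depth varied 3.09-fold. Alternatives were other scalings and filters, robust dispersion, DESeq2 1.42.0, limma 3.58.1 voom, a replicate block, a term for control 1 and SAM 2, removal of a length and GC trend, leaving out each library, and a threshold of 0.01. In a simulation of the comparison of SAM with control (15114 genes), the share of changed genes recovered was 35.8% of 67 at 1.5-fold, 68.7% of 67 at 2-fold and 98.5% of 66 at 4-fold. Of its 145 calls, 6.90% were unchanged genes. The simulated libraries were drawn independently, without the shared excess of SAM 2 and control 1, so these shares do not hold for members with that excess. No library pair of a group agreed within sampling noise (chi-square per degree of freedom 4.98 to 61.6).

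The members and the lists were chosen with earlier results of these data known. Members named are those called, the 10 with the highest mean CPM, the 5 highest and 5 lowest in SAM 2 and control 1 relative to group mates, and the most abundant of each family. From every other list up to 4 called genes with the smallest p are named. Untested members, marker genes, H2AFZ and RNAs without a tail were named after their values were seen. Some marker genes are not reported here. Figures were drawn with matplotlib 3.10.9.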

Additional observations from a re-analysis of the deposited data

How the results depend on the processing

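HIST1H2AC stayed lower with SAM in all 19 alternative fits, and it also passed an adjusted p under 0.01. The number of members called lower was 1 except without SAM 2 (4) and with the length and GC trend removed, without or with the replicate block (2 each), where HIST1H2BK joined at -0.54 (adjusted p = 0.0233) and -0.55 (adjusted p = 0.0369). The number called higher was 0 in every setting. The median log2 fold change of the members ran between -0.79 and 0.16 as each library was left out. All genes called numbered 1598, and 139 to 3233 as each library was left out, with 1 to 4 members lower. That number was 2743 with no filter on low counts, 954 without both control 1 and SAM 2, 2502 when they had a term, 2828 after removal of the length and GC trend and 253 at an adjusted p under 0.01. With no filter 25 of 35 members had SAM 2 and control 1 as their highest libraries, against 16 of 19. S-phase genes called higher numbered 0 to 9 as each library was left out, processing genes 0 to 9, chaperones 0 to 3 and replacement histones 0 to 3.

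Whether the replicate numbers pair the libraries could not be decided. The deviations of same-numbered libraries from their group means correlated at -0.17, -0.40 and 0.13. Those of SAM 2 and control 1 correlated at 0.45, and this shared deviation enters the values of replicates 1 and 2. The fit with the replicate number as a block called 1028 genes and 1 member, and 4 S-phase genes, 0 chaperones, 1 processing gene and 0 replacement histones higher. Of the replacement histones 1, H1F0, was lower under the block, and H2AFX and H2AFY2 were not called. Under the block, the log2 fold changes of HIST2H2BF, HIST1H1D and HIST1H1E turned to -0.28, -0.30 and -0.70, and with the block and the length and GC trend removed they were -0.39, -0.43 and -0.82.

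The same 3 genes, whose signs carry no call, were also below 0 with limma voom (-0.70, -1.27 and -0.96), when control 1 and SAM 2 had a term (-0.18, -0.21 and -0.42) and without both libraries (-0.999, -1.63 and -1.52). HIST1H1E was at -0.016 with library totals only and at -0.14 after removal of the length and GC trend, and HIST1H1C was at 0.00062 without both libraries. As each library was left out, log2 fold changes ran from -3.38 to 2.10 for HIST1H1D, -3.94 to 2.44 for HIST1H1E, -1.81 to 0.98 for HIST2H2BF, -1.83 to 1.04 for HIST1H2AI and -1.64 to 0.16 for HIST1H3D. They ran from -0.80 to 0.076 for HIST1H2BC, -0.78 to 0.11 for HIST2H2BE, -0.46 to 0.19 for HIST1H4H, -0.74 to 0.032 for HIST1H2AG and -0.30 to 0.26 for HIST1H1C. HIST1H2BD (-0.57 to -0.10), HIST1H2BJ (-0.79 to -0.17), HIST1H2BK (-0.33 to -0.19) and HIST3H2A (-0.24 to -0.15) kept their sign. The cause of these changes was not tested.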
